A study of Ovis aries with 16 samples.

Results

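AGGF1, KDR and VEGFA are 3 genes of blood vessel growth, of 855 genes named on the ovine array, which carried 8 probes for them among 15008 distinct probes: 2 for AGGF1, 4 for KDR and 2 for VEGFA. The probes were taken by name, as every probe that was not a control and whose gene name, alias or gene identifier stood for one of these 3. Both AGGF1 probes were listed as LOC100037685 and 2 of the KDR probes as LOC443087. These identifiers were matched to the gene names through a RefSeq list of sheep genes. The genes themselves had been picked with results of these arrays in view: AGGF1 for its differences in BCO against control, estradiol against control and estradiol+BCO against estradiol, and KDR for its difference in estradiol+BCO against estradiol, while VEGFA belonged to a panel of response genes. The group differences of AGGF1, and those of KDR that involve the arrays of its choosing comparison, are therefore given as values without a test. Tests are given for VEGFA, for KDR in BCO against control, and for the slide.

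The arrays measured hypothalamic RNA of 16 fetal sheep, 1 fetus per array and 4 fetuses per group, all carrying long-term catheters and bled at set times. In the estradiol+BCO group, fetuses received estradiol (250 ug per day for 5 days) and then a brachiocephalic artery occlusion (BCO), in which the vessel that supplies the head is closed, for 10 min. The estradiol group had the same estradiol and a sham occlusion, the BCO group had the occlusion without estradiol, and the control group had a sham occlusion without estradiol. Fetuses were 124 to 128 days into a gestation of 147 days, and the hypothalamus was removed 1 h after occlusion or sham occlusion began.

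VEGFA is the secreted growth factor that drives sprouting and permeability of vessels, and its transcription is raised by hypoxia-inducible factors in many tissues. KDR, also called VEGFR-2, is the receptor tyrosine kinase on endothelial cells through which VEGFA gives its main growth signal, whereas FLT1, or VEGFR-1, binds VEGFA tightly and exists also as a soluble decoy. AGGF1, formerly VG5Q, was described in humans as an angiogenic factor with G-patch and FHA domains that is linked to a vascular malformation syndrome. In brain, VEGFA is made largely by glia and neurons and KDR largely by endothelium.

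The probes are printed because the reading of KDR depends on which stretch of its transcript was measured. Names of genes follow a RefSeq table of sheep genes for assembly ARS-UI_Ramb_v3.0, and the files give no genome position for these probes. Each sequence is 60 bases long and written 5′ to 3′, with capitals for the bases that it shares with another probe of the same gene. The AGGF1 probes start at bases 674 and 579 of the cDNA they were designed on, and share no stretch. Of the KDR probes, 1 pair starts at bases 442 and 422 of a VEGFR-2 cDNA and shares 40 bases, and the other pair starts at bases 597 and 519 of an expressed sequence tag (EST) that is listed under the same gene. The VEGFA probes start at bases 356 and 355 and share 59 bases, so that they repeat 1 measurement.
AGGF1 A_70_P056091: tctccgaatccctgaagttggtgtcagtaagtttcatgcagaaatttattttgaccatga
AGGF1 A_70_P056092: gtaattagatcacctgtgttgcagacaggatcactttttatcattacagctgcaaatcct
KDR A_70_P026596: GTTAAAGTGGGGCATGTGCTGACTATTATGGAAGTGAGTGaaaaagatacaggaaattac
KDR A_70_P026597: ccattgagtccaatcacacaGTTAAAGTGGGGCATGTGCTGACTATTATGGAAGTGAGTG
KDR A_70_P041631: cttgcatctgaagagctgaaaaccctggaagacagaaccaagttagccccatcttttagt
KDR A_70_P041632: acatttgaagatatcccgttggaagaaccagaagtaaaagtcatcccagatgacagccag
VEGFA A_70_P050921: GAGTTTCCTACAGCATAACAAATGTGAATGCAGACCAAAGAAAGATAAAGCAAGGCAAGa
VEGFA A_70_P050922: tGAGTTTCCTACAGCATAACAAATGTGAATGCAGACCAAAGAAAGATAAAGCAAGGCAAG
Outside these pairs, no other probe on the array held a run of 25 bases of any of the 8. Their GC content was 38.3% to 45.0%.

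All 8 probes were well above background on 16 of 16 arrays, and no spot of theirs was marked as an outlier. Processed signals were 2184 to 3695 and 1300 to 2070 units for AGGF1, 848 to 2094 and 867 to 1834 units for VEGFA, 65.3 to 193 units for the KDR cDNA pair and 121 to 390 units for the KDR EST pair. Each value below is the log2 signal less that of its array's 75th percentile, a point that lay at 2021 to 2904 units. Of the distinct probes, 77.3% to 86.4% were well above background on an array. Both slides used held 2 arrays from each group, replicates 1 and 2 on slide 1 and replicates 3 and 4 on slide 2. With slide added to the model, 858 of the 12937 tested probes (6.63%) differed between slides at a Benjamini-Hochberg adjusted p under 0.05 by limma. None of the 8 probes was among them: their slide 2 minus slide 1 differences ran from -0.08 to 0.20, with adjusted p from 0.489 to 0.950. Differences within each slide are given beside the pooled ones because of those 858 probes.

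**Figure D1:**
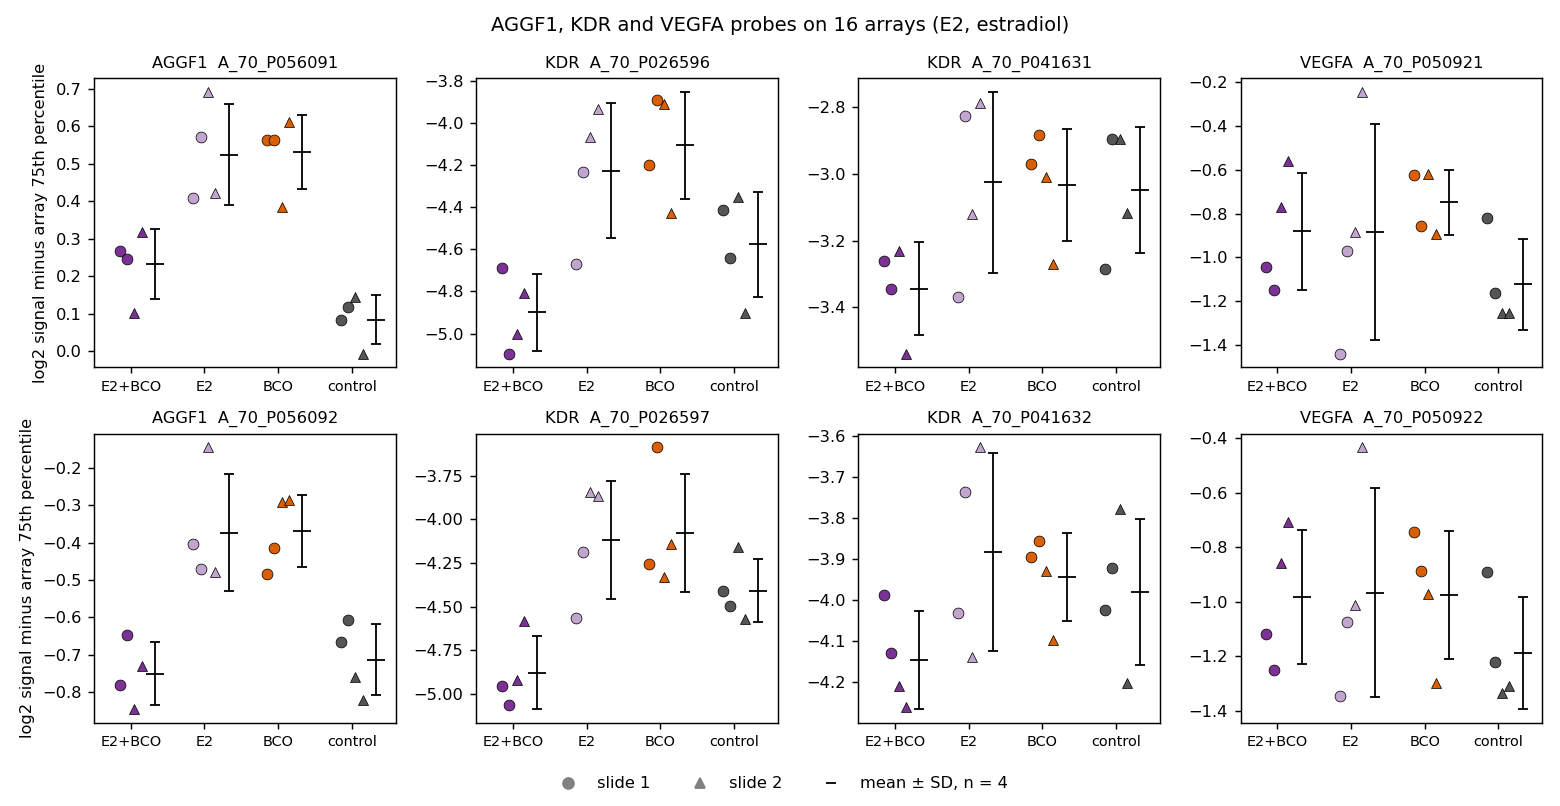
Log2 signal minus the array's 75th percentile (y axis) for each of the 8 probes in estradiol+BCO, estradiol (E2), BCO and control fetuses (x axis). Each symbol is 1 array, circles slide 1 and triangles slide 2, and bars give the mean ± SD of 4 arrays. Both AGGF1 probes are higher on all BCO and all estradiol arrays than on any control or estradiol+BCO array, while the VEGFA groups overlap throughout.

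AGGF1 mRNA was higher in fetuses given either treatment alone than in fetuses given both or neither. A_70_P056091 read 0.27, 0.25, 0.10 and 0.32 on the estradiol+BCO arrays, 0.41, 0.57, 0.69 and 0.42 on the estradiol arrays, 0.56, 0.56, 0.39 and 0.61 on the BCO arrays, and 0.08, 0.12, 0.14 and -0.01 on the control arrays. The lowest estradiol or BCO array stood above the highest estradiol+BCO or control array, whereas estradiol overlapped BCO and estradiol+BCO overlapped control. A_70_P056092 read -0.78, -0.65, -0.85 and -0.73 on the estradiol+BCO arrays, -0.40, -0.47, -0.14 and -0.48 on the estradiol arrays, -0.48, -0.41, -0.29 and -0.29 on the BCO arrays, and -0.67, -0.61, -0.76 and -0.82 on the control arrays. This second stretch of the transcript, which shares no bases with the first, put the groups in the same arrangement.

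Without estradiol, occlusion went with a higher AGGF1 signal: BCO minus control was 0.45 ± 0.09 (log2, SE of the fit), or 1.36-fold, for A_70_P056091 and 0.34 ± 0.09, or 1.27-fold, for A_70_P056092. With estradiol the sign was the opposite, and estradiol+BCO minus estradiol was -0.29 ± 0.09, a ratio of 0.817, and -0.38 ± 0.09, a ratio of 0.770. In sham-occluded fetuses, estradiol minus control was 0.44 ± 0.09 and 0.34 ± 0.09. Among occluded fetuses, estradiol+BCO minus BCO was -0.30 ± 0.09 and -0.38 ± 0.09. Estradiol+BCO minus control was 0.15 ± 0.09 and -0.04 ± 0.09, so that the 2 probes differed in sign only where the groups overlapped. The occlusion difference with estradiol minus that without it came to -0.74 ± 0.13 and -0.72 ± 0.13. These values describe the comparisons that AGGF1 was chosen on, and BCO and estradiol minus control share the control arrays.

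Across the array, all BCO arrays lay above all control arrays for 2.25% of the tested probes, and all estradiol arrays above all control arrays for 1.66%. All estradiol+BCO arrays lay below all estradiol arrays for 2.88%, and below all BCO arrays for 2.57%. The whole AGGF1 arrangement, with every BCO and every estradiol array above every control and every estradiol+BCO array, was found in 18 probes (0.139%). Both AGGF1 probes were among these 18, and the only other named gene was FTO, an RNA demethylase, with 1 probe. The rest were unnamed.

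In the 4 comparisons whose groups did not overlap, AGGF1 differences had the same sign on both slides, as that separation requires. Agreement in sign was therefore fixed beforehand, and only the sizes can differ between slides. For A_70_P056091, BCO minus control was 0.46 on slide 1 and 0.43 on slide 2, estradiol+BCO minus estradiol -0.23 and -0.35, and estradiol minus control 0.39 and 0.49. For A_70_P056092 the slide 2 values were larger: BCO minus control was 0.19 on slide 1 and 0.50 on slide 2, estradiol+BCO minus estradiol -0.28 and -0.48, and estradiol minus control 0.20 and 0.48. With normexp background correction BCO minus control of A_70_P056092 was 0.21. The probes correlated over the 16 arrays (Pearson r = 0.84), and less so once each group's mean was removed (r = 0.47), both given as descriptions of arrays that share groups and slides.

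**Figure D2:**
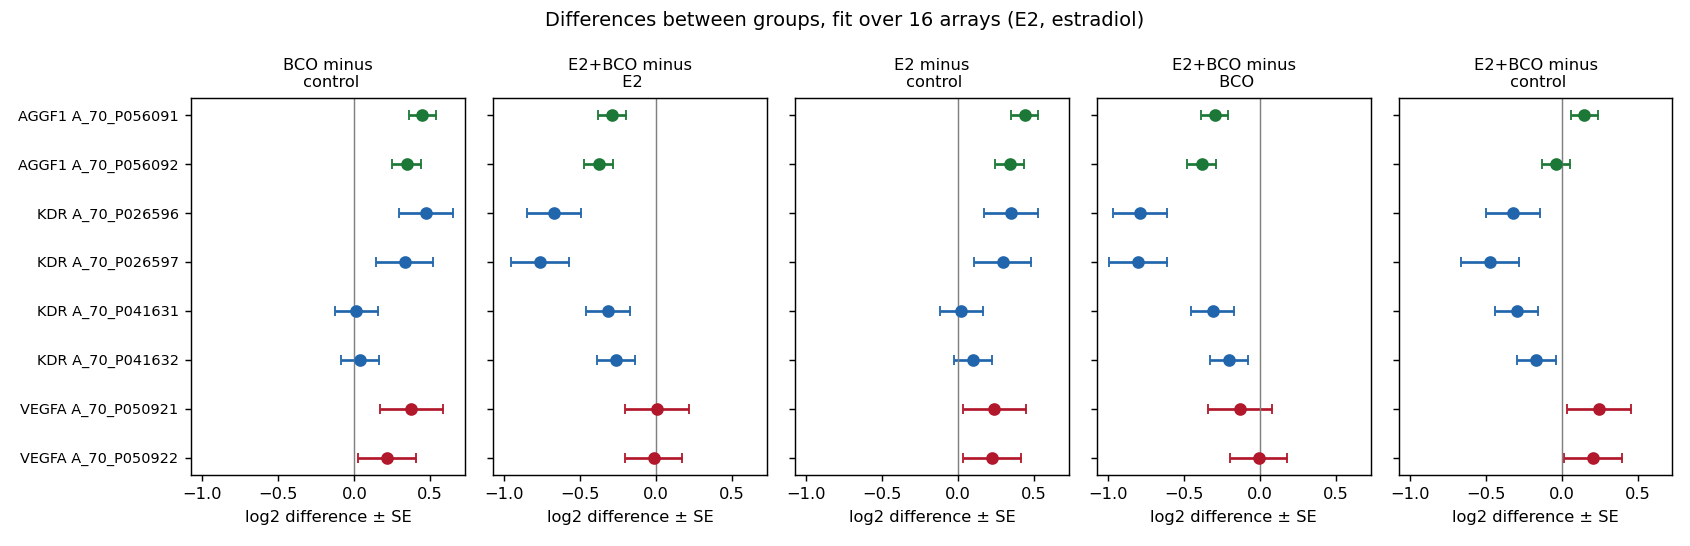
Log2 differences between groups (x axis, first group minus second) for the 8 probes (y axis) in 5 comparisons, from the limma fit over 16 arrays, with bars for the SE. AGGF1 lies to the right of 0 in BCO minus control and E2 minus control and to the left in E2+BCO minus E2, the KDR cDNA pair lies farthest left in both comparisons of E2+BCO with a single treatment, and VEGFA lies near 0 in those.

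KDR had its lowest mean in the estradiol+BCO fetuses on each of its 4 probes, with larger differences on the cDNA pair than on the EST pair. A_70_P026596 read -4.69, -5.10, -5.00 and -4.81 on the estradiol+BCO arrays, -4.67, -4.24, -4.07 and -3.94 on the estradiol arrays, -4.20, -3.89, -3.91 and -4.43 on the BCO arrays, and -4.41, -4.64, -4.35 and -4.90 on the control arrays. A_70_P026597 read -4.96, -5.06, -4.92 and -4.58 on the estradiol+BCO arrays, -4.56, -4.19, -3.84 and -3.87 on the estradiol arrays, -4.25, -3.58, -4.33 and -4.14 on the BCO arrays, and -4.41, -4.50, -4.16 and -4.57 on the control arrays. On both probes, which share 40 bases, all estradiol+BCO arrays lay below all estradiol arrays, as for 2.88% of tested probes. They also lay below all BCO arrays, as for 2.57%, and the share with both was not worked out. The gap to estradiol was narrow: the highest estradiol+BCO array was at -4.69 and -4.58, and the lowest estradiol array at -4.67 and -4.56. All estradiol+BCO arrays lay below all control arrays on A_70_P026597 alone, an arrangement held by 2.06% of tested probes. That gap was small too: the highest estradiol+BCO array was at -4.58 and the lowest control array at -4.57.

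On the cDNA pair, estradiol+BCO minus estradiol was -0.67 ± 0.18 for A_70_P026596 and -0.76 ± 0.19 for A_70_P026597, ratios of 0.628 and 0.589. Estradiol+BCO minus BCO was -0.79 ± 0.18 and -0.80 ± 0.19. These differences were smaller with normexp correction, at -0.53 and -0.60 against estradiol and at -0.41 and -0.43 against BCO. Estradiol minus control was 0.35 ± 0.18 and 0.29 ± 0.19 with overlapping groups, and rested largely on slide 2, with 0.07 and 0.08 on slide 1 against 0.62 and 0.51 on slide 2. The occlusion difference with estradiol minus that without it was -1.14 ± 0.25 and -1.09 ± 0.27. All of these share arrays with the comparison that KDR was chosen on.

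BCO minus control, which shares no array with that comparison, could be tested for KDR. The difference was 0.47 ± 0.18 for A_70_P026596 (95% interval 0.09 to 0.85, limma adjusted p = 0.580 over 12937 probes) and 0.33 ± 0.19 for A_70_P026597 (-0.07 to 0.74, adjusted p = 0.779). Neither passed, and on both probes BCO overlapped control. In this comparison 0 of the 12937 probes passed by limma (0%), 928 having an unadjusted p under 0.05. The EST pair gave 0.01 ± 0.14 (-0.29 to 0.32, adjusted p = 1.00) and 0.04 ± 0.13 (-0.23 to 0.31, adjusted p = 0.999).

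The EST pair of KDR also had its lowest mean in estradiol+BCO fetuses, with smaller differences. A_70_P041631 read -3.26, -3.34, -3.23 and -3.54 on the estradiol+BCO arrays, -3.37, -2.83, -3.12 and -2.79 on the estradiol arrays, -2.97, -2.88, -3.01 and -3.27 on the BCO arrays, and -3.28, -2.90, -2.90 and -3.12 on the control arrays. A_70_P041632 read -3.99, -4.13, -4.21 and -4.26 on the estradiol+BCO arrays, -4.03, -3.73, -4.14 and -3.63 on the estradiol arrays, -3.89, -3.86, -3.93 and -4.10 on the BCO arrays, and -4.02, -3.92, -3.78 and -4.20 on the control arrays. All groups overlapped on both probes. Estradiol+BCO minus estradiol was -0.32 ± 0.14 and -0.26 ± 0.13, and estradiol minus control 0.02 ± 0.14 and 0.10 ± 0.13.

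The 4 probes gave KDR differences of unlike size. Over the 16 arrays the cDNA probes correlated with each other at r = 0.88 and the EST probes at r = 0.83, while correlations between the pairs were 0.54 to 0.68. The cDNA probes overlap in sequence and the EST probes do not. The files do not place the EST on the cDNA, so whether the pairs read the same transcript form was not tested. The mean over all 4 probes, fitted in place of each, gave -0.50 ± 0.13 for estradiol+BCO minus estradiol and 0.21 ± 0.13 for BCO minus control (limma adjusted p = 0.799).

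VEGFA, the ligand, did not pass the test in any comparison. A_70_P050921 read -1.04, -1.15, -0.77 and -0.56 on the estradiol+BCO arrays, -1.44, -0.97, -0.88 and -0.24 on the estradiol arrays, -0.62, -0.86, -0.62 and -0.89 on the BCO arrays, and -0.82, -1.16, -1.25 and -1.26 on the control arrays. Its nearly identical neighbour A_70_P050922 read -1.12, -1.25, -0.86 and -0.71 on the estradiol+BCO arrays, -1.35, -1.07, -1.01 and -0.43 on the estradiol arrays, -0.75, -0.89, -0.97 and -1.30 on the BCO arrays, and -0.89, -1.22, -1.34 and -1.31 on the control arrays. Every pair of groups overlapped on both probes. The highest and the lowest reading of A_70_P050921 both came from estradiol fetuses.

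VEGFA averaged -0.75 ± 0.15 in BCO fetuses and -1.12 ± 0.21 in control fetuses on A_70_P050921 (SD, n = 4 each). The difference of 0.38 ± 0.21 (95% interval -0.07 to 0.82, limma adjusted p = 0.776) and that of 0.21 ± 0.19 on A_70_P050922 (-0.19 to 0.62, adjusted p = 0.905) did not pass. Estradiol+BCO minus estradiol was 0.0039 ± 0.21 (-0.44 to 0.45, limma adjusted p = 0.998) and -0.02 ± 0.19 (-0.42 to 0.39, adjusted p = 0.995). The intervals leave room for a change of up to 0.45 on the log2 scale in either direction, so that a modest response to occlusion under estradiol was not detectable with these arrays. Estradiol+BCO minus BCO was -0.13 ± 0.21 (limma adjusted p = 0.886) and -0.01 ± 0.19 (adjusted p = 0.995), and estradiol+BCO minus control 0.24 ± 0.21 (adjusted p = 0.908) and 0.21 ± 0.19 (adjusted p = 0.914). In both of these comparisons 0 of the 12937 probes passed by limma (0%), with 1222 and 751 at an unadjusted p under 0.05. The occlusion difference with estradiol minus that without it was -0.37 ± 0.30 (limma adjusted p = 0.877) and -0.23 ± 0.27 (adjusted p = 0.931), and 1 probe on the array passed (0.00773%).

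Estradiol minus control of VEGFA had opposite signs on the 2 slides. The pooled value was 0.24 ± 0.21 on A_70_P050921 and 0.22 ± 0.19 on A_70_P050922 (limma adjusted p = 1.00 each), but -0.21 and -0.15 on slide 1 against 0.69 and 0.60 on slide 2. Estradiol+BCO minus control turned likewise, at -0.11 and -0.13 on slide 1 and 0.59 and 0.54 on slide 2. BCO minus control was above 0 on both slides, at 0.25 and 0.50 for A_70_P050921 and 0.24 and 0.19 for A_70_P050922. Each slide held only 2 arrays per group, and whether the VEGFA effect differed between slides was not tested.

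**Figure D3:**
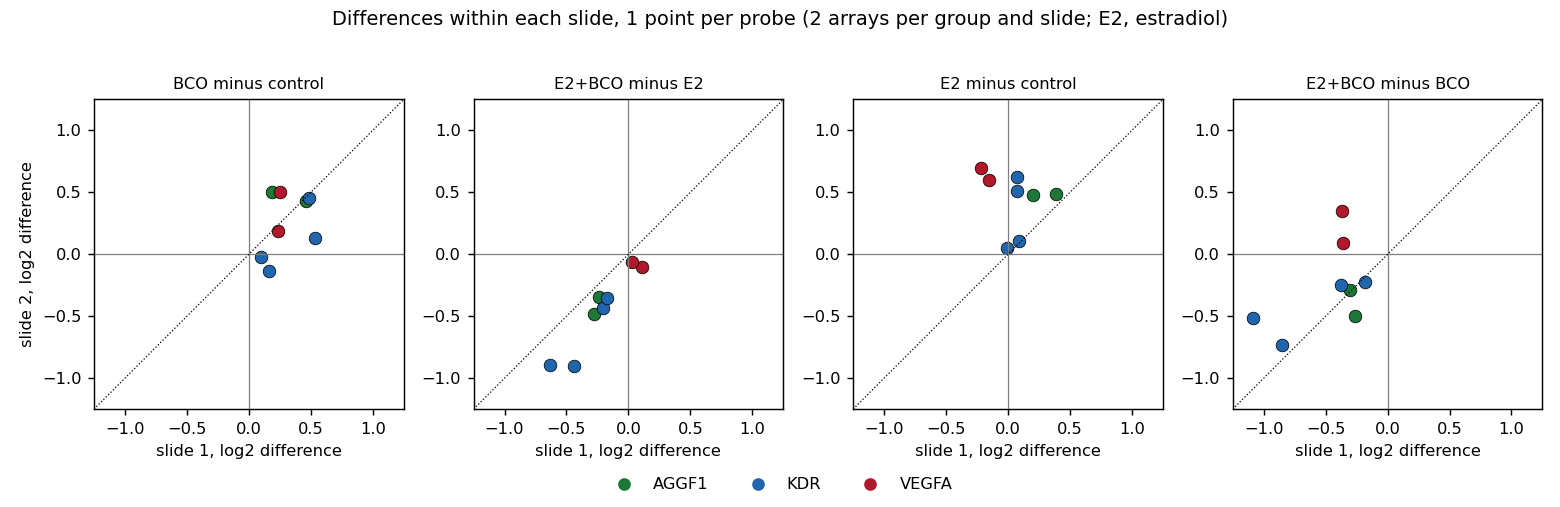
Log2 difference on slide 1 (x axis) and slide 2 (y axis) for each of the 8 probes in 4 comparisons, 2 arrays per group and slide, with the dotted line where both are equal. AGGF1 and the KDR cDNA pair keep their signs in all 4. Where groups do not overlap, no other outcome was possible. That holds for AGGF1 in all 4 and for the KDR cDNA pair in both comparisons with E2+BCO. Both VEGFA probes are below 0 on slide 1 and above 0 on slide 2 in E2 minus control.

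Ordered by group mean, A_70_P056091 of AGGF1 was at 0.53 ± 0.10 in BCO, 0.52 ± 0.13 in estradiol, 0.23 ± 0.09 in estradiol+BCO and 0.08 ± 0.07 in control fetuses (SD, n = 4 each). Its BCO and estradiol means differed by less than their SDs. For A_70_P026596 of KDR the order was -4.11 ± 0.26 in BCO, -4.23 ± 0.32 in estradiol, -4.58 ± 0.25 in control and -4.90 ± 0.18 in estradiol+BCO fetuses. On A_70_P050921 of VEGFA, means were -0.75 ± 0.15 in BCO, -0.88 ± 0.27 in estradiol+BCO, -0.88 ± 0.49 in estradiol and -1.12 ± 0.21 in control fetuses, and the first 3 lay within their SDs of each other. BCO fetuses had the highest mean on these 3 probes, while the lowest was in control for AGGF1 and VEGFA and in estradiol+BCO for KDR. The highest group depended on the probe. On both EST probes of KDR and on A_70_P050922 of VEGFA the estradiol mean was the highest, above BCO by less than their SDs. On the other AGGF1 probe, A_70_P056092, the means were -0.75 ± 0.08 in estradiol+BCO and -0.71 ± 0.10 in control fetuses, which differed by less than their SDs.

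The 3 genes did not move as 1 set over the 16 arrays. AGGF1 and the KDR cDNA pair correlated at r = 0.62 to 0.69, and at 0.05 to 0.49 after group means were removed. AGGF1 and the KDR EST pair correlated at 0.20 to 0.26, and AGGF1 and VEGFA at 0.06 to 0.32. VEGFA and KDR correlated at 0.17 to 0.48, and for VEGFA with A_70_P026596 the value within groups was 0.60. These are descriptions over 16 arrays that share groups and slides.

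VEGFA varied most like ANGPT2 and FLT1. Among 1184 tested probes that carried 1 gene name, those with the highest correlation to A_70_P050921 were an ANGPT2 probe (r = 0.82, Spearman 0.80), an FLT1 probe (r = 0.81, Spearman 0.90) and a second ANGPT2 probe (r = 0.76, Spearman 0.74). ANGPT2 is the angiopoietin that destabilizes vessels alongside VEGFA, and FLT1 is a VEGFA receptor. For the first ANGPT2 probe r was 0.82 on slide 1 and 0.79 on slide 2 (8 arrays each) and 0.85 within groups, but 0.64 without the 2 arrays farthest from the VEGFA median. For FLT1 these values were 0.67, 0.88, 0.80 and 0.81, and its probe was dim, well above background on 11 of 16 arrays. Both were chosen as the highest of 1184, so no p is given.

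**Figure D4:**
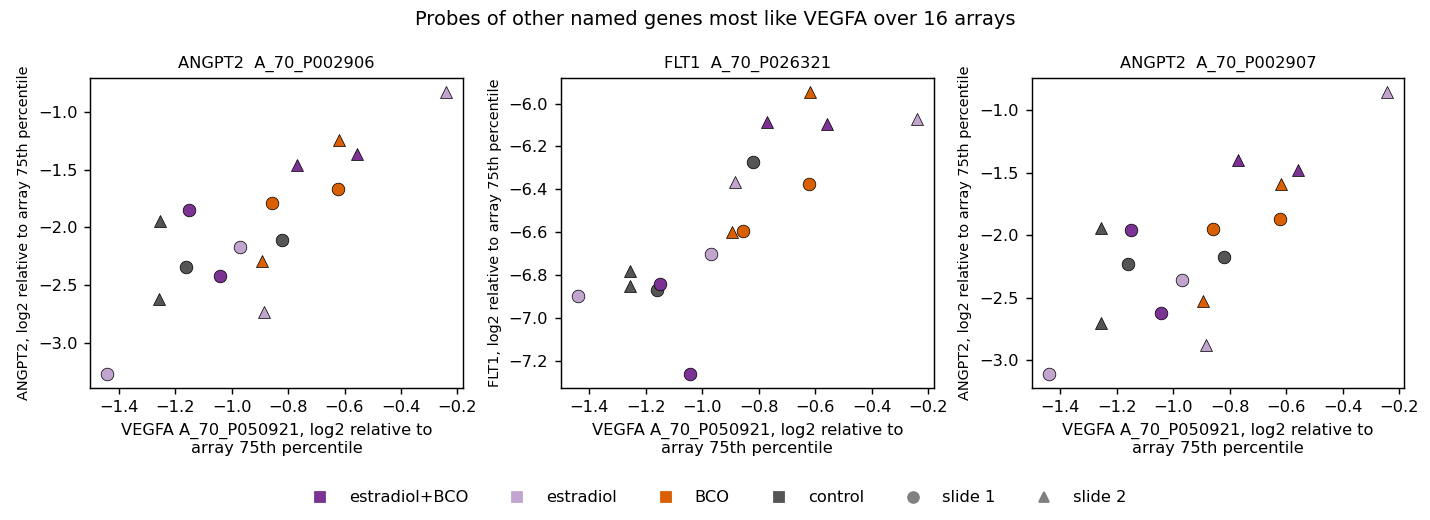
Log2 values relative to the array 75th percentile of VEGFA A_70_P050921 (x axis) and of the 3 named probes most like it (y axes) on 16 arrays, coloured by group, with circles for slide 1 and triangles for slide 2. Points of all 4 groups lie along 1 rising band, and 2 estradiol arrays form its ends for ANGPT2.

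AGGF1 was most like the clock gene CLOCK (r = 0.75) and 2 probes of FTO (r = 0.74 and 0.69). FTO A_70_P051336 averaged -0.66 ± 0.29 in estradiol+BCO, -0.16 ± 0.15 in estradiol, -0.15 ± 0.05 in BCO and -0.45 ± 0.12 in control fetuses. The brightest KDR probe, A_70_P041631, was most like NOG, which encodes the BMP antagonist noggin (r = 0.75), the kinesin KIF5B (r = 0.72) and NUS1 (r = 0.70). NUS1 encodes the Nogo-B receptor, which in human cells also serves dolichol synthesis. None of the nearest probes of AGGF1 or KDR was of a gene on the vascular list described next.

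Of the other VEGF system genes, the second receptor FLT1 had 5 probes, 4 of them tested. On the brightest, from a soluble VEGFR-1 cDNA, BCO minus control was 0.22 ± 0.24 (limma adjusted p = 0.941) and estradiol+BCO minus estradiol 0.25 ± 0.24 (adjusted p = 0.855). On the other 3 tested FLT1 probes estradiol+BCO minus estradiol was 0.42 ± 0.25, 0.22 ± 0.19 and -0.06 ± 0.27, the last on the probe that varied like VEGFA, and none passed. PGF, the placental growth factor that binds FLT1, differed by -0.43 ± 0.25 in BCO minus control (limma adjusted p = 0.783) and by 0.32 ± 0.25 in estradiol+BCO minus estradiol (adjusted p = 0.800). NRP1 and NRP2, coreceptors for VEGFA, and the angiopoietins ANGPT1 and ANGPT2 with their receptor TEK did not pass in any of these. The TEK probe, which gave every TEK value below, was dim, well above background on only 7 arrays.

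A list of angiogenic and vascular genes held 35 further genes with a tested probe. In BCO minus control 26 were higher and 9 lower, with a median of 0.12 against 0.01 over all tested probes, of which 51.9% were higher, and 0 of the 35 passed. The lowest p on the higher side belonged to the Notch ligand JAG1 (0.55 ± 0.24, limma adjusted p = 0.642), the dimerization partner of hypoxia-inducible factors ARNT (0.75 ± 0.37), the matrix metalloproteinase MMP2 (0.29 ± 0.15) and the vasoconstrictor peptide EDN1 (0.62 ± 0.39). On the lower side they belonged to PGF, the plasminogen activator PLAU (-0.25 ± 0.18), the angiopoietin receptor TEK (-0.28 ± 0.22) and the protease inhibitor TIMP1 (-0.17 ± 0.16). HIF1A and EPAS1, the oxygen-regulated subunits, differed by 0.02 and 0.08.

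In estradiol+BCO minus estradiol 13 of the 35 were higher and 22 lower, with a median of -0.10 against -0.01 over all tested probes, of which 48.4% were higher. None of the 35 passed, and across the array 1 probe did (0.00773%), which was none of the 8. The lowest p on the lower side belonged to TIMP3, an inhibitor that also blocks VEGFA binding to KDR (-0.37 ± 0.10, limma adjusted p = 0.386), TEK (-0.63 ± 0.22), the receptor FGFR1 (-0.50 ± 0.21) and the membrane-bound metalloproteinase MMP14 (-0.36 ± 0.17). On the higher side stood the endothelial nitric oxide synthase NOS3 (0.34 ± 0.15, adjusted p = 0.616), TIMP2 (0.24 ± 0.12), TGFB1 (0.31 ± 0.20) and PGF. ANGPT1, which stabilizes vessels through TEK, was at -3.05 ± 0.98 in estradiol+BCO and -2.28 ± 0.39 in estradiol fetuses (SD, n = 4 each), a difference of -0.77 ± 0.39 that did not pass (limma adjusted p = 0.664).

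In estradiol minus control 17 were higher and 18 lower, with a median of -0.01, the same as over all probes, and 0 of 12937 probes passed by limma (0%; 424 at an unadjusted p under 0.05). The lowest p among the higher genes belonged to the prostaglandin synthase PTGS2 (1.12 ± 0.59), ARNT (0.66 ± 0.37), TEK (0.28 ± 0.22) and EDN1 (0.49 ± 0.39), and among the lower ones to TIMP2 (-0.22 ± 0.12), the kinase AKT1 (-0.20 ± 0.10), PGF (-0.38 ± 0.25) and the Notch ligand DLL4 (-0.23 ± 0.16). The adjusted p was 1.00 for each.

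**Figure D5:**
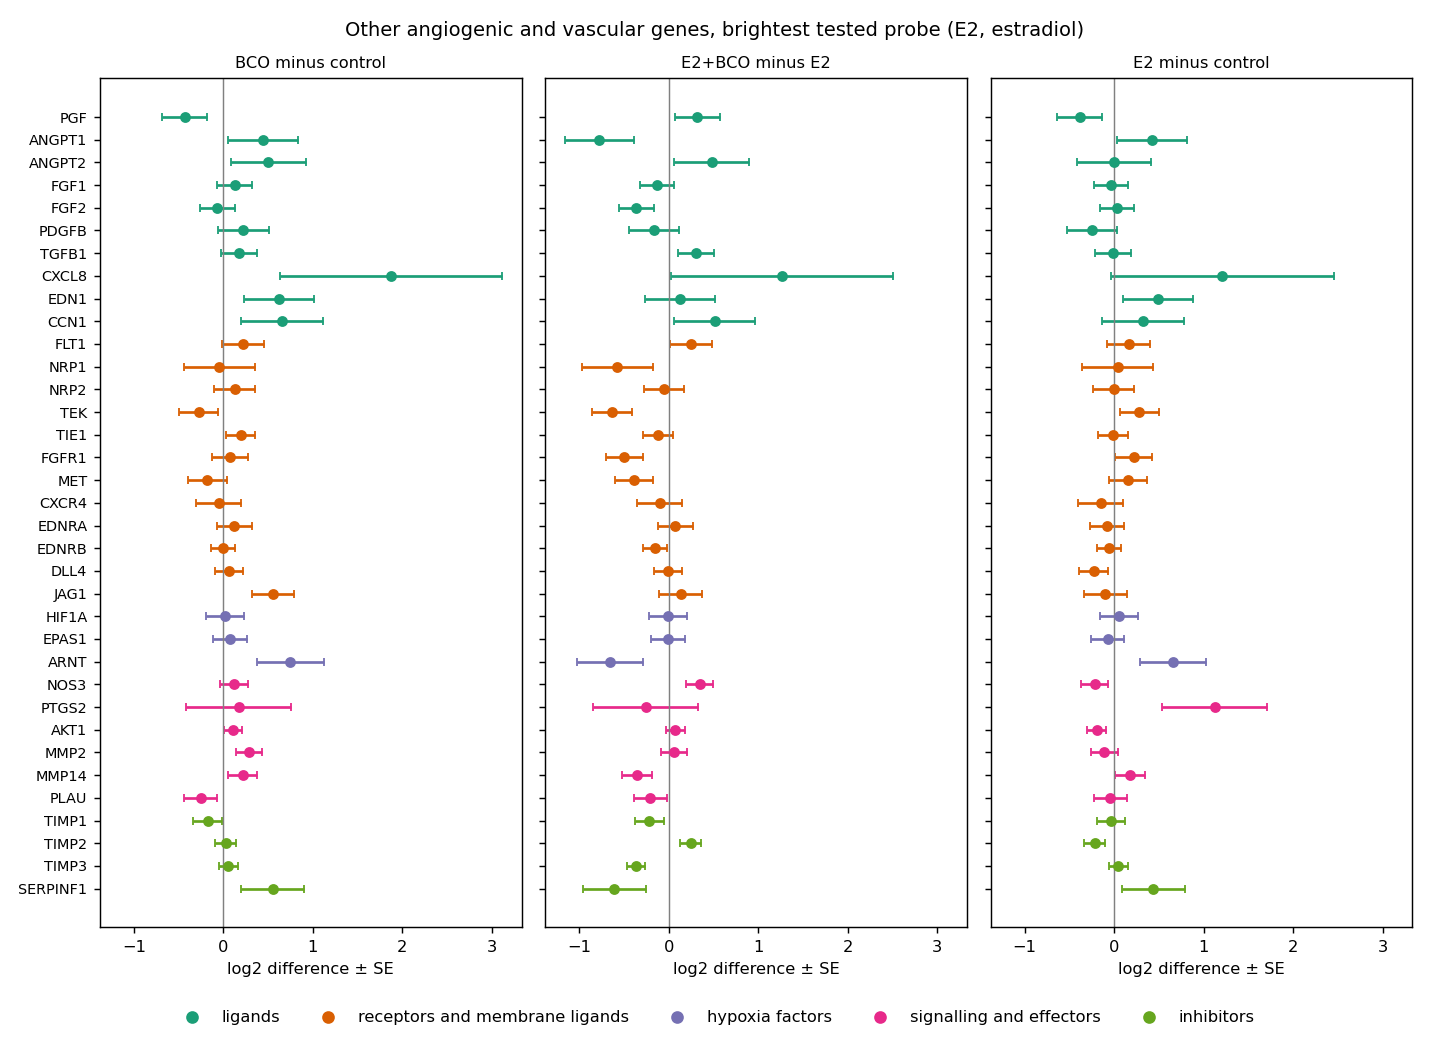
Log2 differences (x axis, first group minus second, bars SE of the limma fit) for 35 other angiogenic and vascular genes (y axis) in BCO minus control, E2+BCO minus E2 and E2 minus control, coloured by role, brightest tested probe of each gene. In BCO minus control 26 genes lie to the right of 0, and in E2+BCO minus E2 22 lie to the left, none past the threshold.

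Of 14 endothelial markers 8 were tested, among them PECAM1, TIE1, TEK and FLT1, while CDH5 and CLDN5 were not analysed here. Their summed signal, relative to the 75th percentile on the linear scale, was 3.85 to 5.17 in estradiol+BCO and 3.42 to 4.06 in estradiol fetuses, and 4.07 to 4.79 in BCO and 3.31 to 3.98 in control fetuses. Most of this sum was 1 gene, SLC2A1, the glucose transporter of brain endothelium, which differed by 0.26 ± 0.13 in BCO minus control (limma adjusted p = 0.706) and by 0.31 ± 0.13 in estradiol+BCO minus estradiol (adjusted p = 0.607). The angiopoietin receptor TEK and the adhesion molecule VCAM1 were below 0 in both, and neither passed. They were at -0.28 ± 0.22 and -0.24 ± 0.29 in BCO minus control. In estradiol+BCO minus estradiol they were at -0.63 ± 0.22 and -0.60 ± 0.29. The TEK probe was dim, well above background on only 7 arrays. By gene, 6 of the 8 were above 0 in BCO minus control (median 0.21) and 5 of the 8 in estradiol+BCO minus estradiol (median 0.16). Differences of single genes ran from -0.28 to 1.88 in BCO minus control and from -0.63 to 1.40 in estradiol+BCO minus estradiol. None of the 8 passed in either. PECAM1, an adhesion molecule of all endothelium, differed by 0.20 ± 0.20 in BCO minus control (limma adjusted p = 0.927) and by 0.06 ± 0.20 in estradiol+BCO minus estradiol (adjusted p = 0.987).

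Of 5 astrocyte markers, 5 were below 0 in estradiol+BCO minus estradiol (median -0.34) and 4 in estradiol+BCO minus BCO (median -0.31), while 5 were above 0 in estradiol minus control (median 0.32) and 4 in BCO minus control (median 0.23). Their summed signal, mostly that of the water channel AQP4, was 49.25 to 70.35 in estradiol+BCO, 60.15 to 72.6 in estradiol, 41.0 to 55.3 in BCO and 45.55 to 64.9 in control fetuses, with overlap in each comparison. In BCO minus control and in estradiol+BCO minus BCO the sum went against most of the markers. Its median was 59.24 in control, 49.89 in BCO and 67.87 in estradiol+BCO fetuses. The 1 marker that opposed the other 4 was at -0.37 in BCO minus control and 0.56 in estradiol+BCO minus BCO. Of 6 markers of fibroblasts and meninges 4 were tested, the matrix genes COL1A2, COL3A1, DCN and FBLN1, and all 4 were below 0 in estradiol+BCO minus estradiol (median -0.47), in estradiol+BCO minus BCO (median -0.39) and in estradiol+BCO minus control (median -0.31). In estradiol minus control 4 of the 4 were above 0 (median 0.17), and in BCO minus control 1 was (median -0.01). Their summed signal was 2.54 to 5.12 in estradiol+BCO, 3.02 to 5.79 in estradiol, 3.33 to 5.22 in BCO and 2.61 to 4.595 in control fetuses. None of these astrocyte, fibroblast and meningeal markers passed in any of the comparisons. The part of these cell types in the results was not tested, and in whole hypothalamic RNA fewer cells of a type and less RNA per cell cannot be told apart.

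The summed signal of 9 hypothalamic peptide genes was 17.6 to 34.1 in estradiol+BCO, 14.3 to 44.1 in estradiol, 4.84 to 12.4 in BCO and 19.5 to 33.8 in control fetuses. All BCO arrays lay below all others on this sum, and the sum of estradiol fetuses overlapped that of control. How often sums of other genes separate in this way was not worked out. By gene, 8 of the 9 were below 0 in BCO minus control and 1 above (range -6.13 to 0.38), and 0 passed by limma. The part of this peptide difference in the BCO values of AGGF1, KDR and VEGFA was not tested. Haemoglobin (HBB) overlapped in all groups, at 3.24 to 23.8 in estradiol+BCO and 3.35 to 17.9 in estradiol, and at 5.10 to 29.5 in BCO and 4.08 to 36.8 in control fetuses. The 1 choroid plexus and ependyma marker differed by -1.21 in BCO minus control, -1.72 in estradiol minus control and -2.15 in estradiol+BCO minus control. Differences of 4 pituitary markers ran from -3.08 to -0.11 in BCO minus control and from -4.76 to 0.14 in estradiol+BCO minus estradiol. Those of 2 microglia and leukocyte markers had medians of -0.24 and -0.06 there. None passed between 2 groups, and their part in the results was not tested. Markers of mural cells, oligodendrocytes and neurons were not analysed here.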

How the data were processed

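Total RNA (integrity numbers 7.4 to 8.4, per the labels) was labelled with Cy3 and hybridized to single-colour Agilent arrays of design 019921. Per the file headers, Feature Extraction 10.1.1.1 (protocol GE1-v5_10_Apr08) read 15744 features, and the deposited processed signal is an intensity after background subtraction. A deposited table of log2 values for the series was found to equal the log2 processed signal minus the array's median over all features. Here outlier spots (2 to 36 per array) were left out, spots of a probe averaged, and each array's log2 signal was set relative to its 75th percentile over 15208 spots that were not controls. Probes well above background on at least 4 of 16 arrays were tested, which kept 12937 and left out 2071.

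A model with 4 groups was fitted to 16 arrays with limma 3.58.1 (R 4.3.3) and moderated by empirical Bayes, 2-sided, adjusted by Benjamini-Hochberg over all tested probes, with a threshold of 0.05; the labels state no test. Tested on simulated data for BCO minus control (12854 probes, 200 changed by 2 on the log2 scale), the script recovered 175 of the 200 and called 13 others. The simulated probes varied independently and without slide differences. Changes smaller than 2 were not simulated, so the recovery does not tell how well differences like those of the 3 genes would be found. The number of arrays limits precision. Names covered 1389 probes and 855 genes, through accession, gene identifier, symbol, synonym or alias. All probes of AGGF1, KDR and VEGFA are named; of the list of vascular genes, up to 4 with the lowest p on each side per comparison; and for each gene's brightest probe, the 3 other named probes with the highest Pearson r. Genes outside these rules were named after their values were seen. The members, lists and rules were chosen with earlier results of these data known.

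Alternatives were quantile normalization, median centring, normexp with an offset of 50, no filter and a filter on all 16 arrays, outlier spots kept, trended and robust moderation, the compared groups alone, a block for slide, either slide by itself, the replicate block, the value table, the mean of a gene's probes, and each array left out.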

Additional observations from a re-analysis of the deposited data

Results flagged for a closer look

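For AGGF1, every BCO array lay above every control array while every estradiol+BCO array lay below every estradiol array, so that the occlusion difference had opposite signs with and without estradiol. The difference between the 2 occlusion differences was -0.74 on A_70_P056091 and -0.72 on A_70_P056092 (log2). It is given without a test, because AGGF1 was chosen on these comparisons. Among 32 sets of 4 arrays (8 probes in 4 groups) no array stood apart from the rest by Dixon's criterion at 0.829.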

How the results depend on the processing

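Of 1589 recomputed values, 1515 were classed as the same. Differences were so classed if they kept their sign and side of the threshold or moved by less than the spread between arrays. Counts of probes that passed were so classed if equal or close to the main count, whichever probes they held. No probe of AGGF1, KDR or VEGFA passed the threshold of limma in any of them. The signs of AGGF1 and of the KDR cDNA pair held under every alternative in each comparison of groups, except estradiol+BCO minus control of A_70_P056092, which stayed within 0.08 of 0. Where groups did not overlap, omitting an array, using 1 slide, a block or only the compared groups could not reverse a sign. This was so for AGGF1 in 4 comparisons and for the KDR cDNA pair in estradiol+BCO minus estradiol and minus BCO. It was also so for A_70_P026597 in estradiol+BCO minus control. A kept sign there carries no further information under those settings. The precision is that of 4 arrays per group, and of 2 per group within a slide, and the KDR probes were dim. The cause of the changes listed next was not tested.

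For AGGF1 A_70_P056092, BCO minus control was 0.21 with normexp, 0.19 on slide 1 and 0.50 on slide 2, estradiol minus control 0.20 on slide 1 and 0.48 on slide 2, estradiol+BCO minus BCO -0.26 with normexp, -0.26 on slide 1 and -0.50 on slide 2, and the interaction (the occlusion difference with estradiol minus that without it) -0.59 with normexp, -0.46 on slide 1 and -0.98 on slide 2. For KDR A_70_P026596, estradiol minus control was 0.074 on slide 1 and 0.62 on slide 2, and with normexp estradiol+BCO minus BCO was -0.41 and the interaction -0.77. For KDR A_70_P026597, estradiol+BCO minus BCO was -0.43 with normexp, -1.09 on slide 1 and -0.51 on slide 2, and the interaction -0.72 with normexp.

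Counts of probes that passed also moved. BCO minus control gave 0 probes, but 14 on slide 2 alone, 3 with only the groups compared, and 0 to 6 with 1 array left out (6 without BCO replicate 2). Estradiol minus control gave 0, but 1 on slide 2 alone, and estradiol+BCO minus control 0, but 3 on slide 2 alone. Estradiol+BCO minus BCO gave 0, but 13 on slide 2 alone and 0 to 5 with 1 array left out (5 without BCO replicate 1, 3 without BCO replicate 2 and 1 without BCO replicate 4). Estradiol+BCO minus estradiol gave 1, but 0 with median centring, the value table, only the groups compared or either slide alone, and 0 to 1 with 1 array left out. The interaction gave 1, but 0 with quantile normalization, median centring, no filter, the value table or either slide alone, 3 with slide as a block, and 0 to 3 with 1 array left out (3 without BCO replicate 1).

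Replicate numbers did not pair the samples: arrays of the same number correlated at -0.03 to 0.27 in their deviations from group means (median 0.12), other arrays of the same slide at a median of 0.14, and 3 of 16 arrays correlated best with their own number. With the replicate block, 0 probes passed in estradiol+BCO minus estradiol and 3 in the interaction, and no count of the other comparisons changed.

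Sign changes occurred in values that did not pass. For VEGFA A_70_P050921 on slide 1, estradiol minus control was -0.21 and estradiol+BCO minus control -0.11. Its estradiol+BCO minus BCO was 0.093 on slide 2, and its estradiol+BCO minus estradiol was -0.10 on slide 2, -0.0065 for the mean of both probes and -0.18 to 0.22 with 1 array left out. For VEGFA A_70_P050922 on slide 1, estradiol minus control was -0.15, estradiol+BCO minus control -0.13 and estradiol+BCO minus estradiol 0.026. Its estradiol+BCO minus BCO was 0.028 with median centring, 0.015 with quantile normalization, 0.024 with the value table, 0.35 on slide 2 and -0.12 to 0.081 with 1 array left out. Its estradiol+BCO minus estradiol was 0.0057 with median centring and -0.14 to 0.16 with 1 array left out. For KDR A_70_P041631, BCO minus control was -0.12 with normexp, -0.0035 with quantile normalization, -0.13 on slide 2, -0.0031 with the value table and -0.065 to 0.093 with 1 array left out. Its estradiol minus control ran from -0.057 to 0.19 over 30 alternatives and changed sign in 5 of them. With the mean of all 4 probes in place of A_70_P041631, estradiol+BCO minus BCO was -0.53 and the interaction -0.72. For KDR A_70_P041632, BCO minus control was -0.024 on slide 2 and -0.037 to 0.10 with 1 array left out.

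Slide 2 minus slide 1 of AGGF1 A_70_P056092 was -0.013 with median centring, -0.020 with the value table and -0.026 to 0.036 with 1 array left out, and that of A_70_P056091 -0.052 to 0.0053. That of KDR A_70_P026596 was -0.044 with normexp, -0.049 with quantile normalization and -0.022 to 0.12 with 1 array left out. That of KDR A_70_P041631 was 0.023 for the mean of all probes, 0.0006 with normexp and -0.081 to 0.024 with 1 array left out. That of VEGFA A_70_P050922 was -0.013 with normexp and -0.014 to 0.14 with 1 array left out.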
